A study of Homo sapiens with 4 samples.

Results

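The genes described here are 38 ATP-dependent chromatin remodelers and subunits of remodeling complexes, out of 25121 genes with a symbol on the array. They came from a list of gene names and were found through the transcript accession of each probe, so the rule used no measured value, although the list was drawn up with earlier results of these data known. The list holds 10 CHD genes, 15 SWI/SNF genes, 7 ISWI genes, 5 INO80/SWR genes and ATRX. All 38 had a probe, and 57 probes measured them in all. For 23 genes there was a single probe, and the other 15 had several. Each gene is represented by its brightest probe, which was well above background on all 4 arrays for all 38 genes. Among genes with several measured probes, all probes had the same sign for 9 of 15 in the PC3 knockdown, 8 of 14 in the DU145 knockdown and 10 of 15 between the control lines.

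Chromatin remodelers use ATP to slide, eject or exchange nucleosomes, and so set how far DNA is open to transcription factors and polymerases. The CHD proteins carry chromodomains that bind modified histones, SWI/SNF complexes open enhancers and promoters, ISWI complexes space nucleosomes, and the INO80 and SWR-type complexes move or exchange the histone variant H2A.Z. In prostate cancer, CHD1 is known for recurrent deletions, and the SWI/SNF ATPases are known for work with transcription factors of the prostate lineage.

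RNA came from PC3 and DU145 cells, established lines from metastases of human prostate cancer that grow without androgen. PC3-shC and DU145-shC cells carried an shRNA against luciferase, and PC3-shESS2 and DU145-shESS2 cells one against ESS2, a nuclear protein found with the spliceosome. The study ties ESS2 to 2 of the remodelers, CHD1 and BAZ1B, and the comparisons here ask whether the RNA of the remodelers differed after the knockdown and between the lines. Each of the 4 conditions was measured on 1 one-colour Agilent array. The sample labels call the cells transduced, whereas the study's methods describe PC3 cells transfected with shRNA plasmids and selected with puromycin. All 4 groups share the shRNA treatment, and no untreated parental cells were analysed here. The study's methods do not say whether the selected cells were a pool or a clone. With 1 array per condition, the data cannot show how far another shRNA or culture would differ. As every value is from bulk RNA, fewer expressing cells and less RNA per cell cannot be told apart.

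The arrays were alike in quality. Of 60901 spots other than controls, 50.8 to 52.6% passed the scanner's test for signal well above background, none was saturated, and the 75th percentile of the processed signal ran from 212 to 290. ESS2 itself had a processed signal of 133 on the PC3-shC array and 53.6 on the PC3-shESS2 array, and 85.7 and 17.3 on the DU145 arrays, so that its log2 ratio after scaling was −1.45 in PC3 and −2.35 in DU145. The line labels were borne out by CTNNA1, known to be lost in PC3, with processed signals of 2.21 and 2.27 on the PC3 arrays and 4320 and 4810 on the DU145 arrays. The epithelial markers KRT8, KRT18, EPCAM and CDH1 were well above background on all 4 arrays, EPCAM with a log2 ratio of −2.61 in DU145 after the knockdown, while KLK3, a marker of luminal prostate cells, was so on none. Of 9 leukocyte, fibroblast and endothelial markers, CD3E, COL1A2 and DCN were well above background on no array and 5 were so on all 4. Among these, CD14 had a log2 ratio of −2.16 in PC3, and PECAM1, the remaining marker, had one of −4.51, with processed signals of 338 and 16.4. Summed over the 9 markers, the processed signal was 969 and 424 on the PC3 arrays and 352 and 462 on the DU145 arrays, and the part of these markers in the remodeler values was not tested. The PC3 arrays shared a scan and the DU145 arrays shared another, so a difference between lines cannot be told apart from one between scans.

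Processed signals are given below before scaling, in the order PC3-shC, PC3-shESS2, DU145-shC and DU145-shESS2. Log2 ratios are differences of log2 signals after each array was scaled to its 75th percentile, shESS2 over shC for the knockdown and PC3 over DU145 for the lines. Between single spots of 1 probe on a pair of arrays, such a ratio had a median SD of 0.08, which covers spots only and neither cultures nor hybridizations. With 1 array per condition no p-value exists within a line, and a gene is called lower or higher where the ratio passed 1.5-fold, 0.58 on the log2 scale. Where both lines were fitted together with limma, 1 residual degree of freedom remained, which is the difference between the responses of the lines. The variance of each gene was drawn towards a prior from all genes, with 2.83 degrees of freedom. The p-values therefore measure no spread between replicate cultures.

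Few remodeler genes differed after the knockdown of ESS2. In PC3, BPTF alone was lower by more than 1.5-fold and CHD5 alone higher, which is 2 of 38 genes (5.26%), where 9.98% of the 16764 genes compared were lower and 10.1% higher. The PC3 calls depended on the processing, as they were 4 lower and 1 higher with median scaling and none with normexp background correction. CHD5 was also the single member past 2-fold, a size that 7.75% of all genes passed. In DU145, CHD2 alone was higher and no member was lower, beside 7.18% higher and 8.63% lower among 16842 genes. No member passed 2-fold there, where 4.83% of all genes did. No member passed 1.5-fold in the same direction in both lines, whereas 472 of the 15478 genes compared in both did. The limma fit across lines called 0 of the 38 members and 0 of 17126 genes at an adjusted p of 0.05, which is 0.0%. At an unadjusted p of 0.05, 1047 genes (6.11%) and 0 members passed, and the lowest adjusted p (limma) among the members was 0.746. ESS2 itself, with ratios of −1.45 in PC3 and −2.35 in DU145, was not called at the adjusted threshold either. The absence of calls therefore does not show that the members were unchanged.

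Below the fold threshold, more members had ratios below 0 than above 0 in PC3. The ratio was below 0 for 28 of 38 members (73.7%) and for 55.7% of all genes, with a median of −0.13 for the members and −0.06 for all genes. The number of members below 0 was 31 with median scaling, 24 with quantile normalization or with the mean of the probes, and 21 with the authors' scaled values. The scaling also moved the median of all genes between −0.16 and 0.04 over the alternatives for PC3. Taken relative to the median of all genes, the members lay at −0.08 as reported and between −0.08 and −0.04 under the other scalings. In DU145, 18 members were below 0 and 20 above, with a median of 0.01 beside −0.02 for all genes. Of the 38 members, 21 in PC3 and 20 in DU145 had a ratio over 2 times the spread between spots, which is 55.3 and 52.6%, beside 69.4 and 63.5% of all genes.

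**Figure D1:**
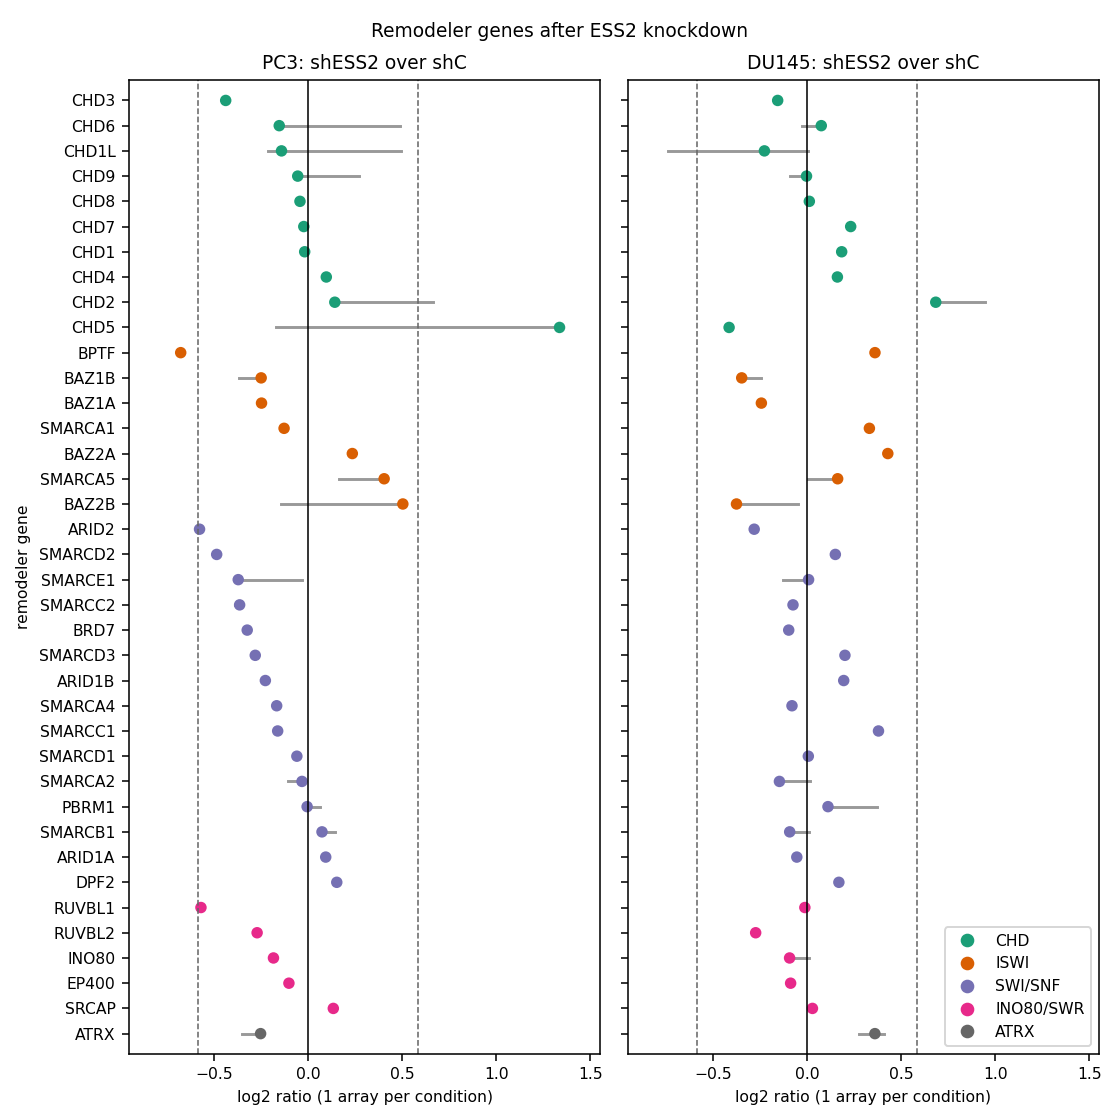
Log2 ratio of shESS2 over shC cells for each of the 38 remodeler genes in PC3 (left) and DU145 (right), with 1 array per condition. Points are the brightest probe of each gene, coloured by complex, grey bars span the ratios of all its measured probes, and dashed lines mark 1.5-fold. BPTF and CHD5 lie outside the lines in PC3 and CHD2 in DU145, and the CHD5 bar in PC3 crosses 0.

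Among the groups of several genes, the lowest medians in PC3 were those of the INO80/SWR and SWI/SNF genes, although no test between complexes was made. ATRX, alone in its group, had a ratio of −0.25. The ratio was below 0 for 12 of 15 SWI/SNF genes (median −0.17), 4 of 5 INO80/SWR genes (median −0.18), 4 of 7 ISWI genes (median −0.13) and 7 of 10 CHD genes (median −0.03), beside 55.7% of all genes. These signs depend on the scaling. Of the SWI/SNF genes, SMARCA2, SMARCD1 and PBRM1 rose above 0 under some scalings, and SMARCB1 and ARID1A fell below it. In DU145 the medians were 0.01 for SWI/SNF, −0.09 for INO80/SWR, 0.16 for ISWI and 0.04 for CHD genes. Across both lines, 14 members were below 0 in both, 6 above 0 in both, and 18 (47.4%) ran in opposite directions, compared with 43.0% of all genes. The commonest opposite pattern was lower in PC3 and higher in DU145, with 14 members (36.8%, all genes 23.3%). A difference of more than 1.5-fold between the responses of the lines was found in 5 members (13.2%), compared with 25.1% of all genes.

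To show the sequence in front of the genes on which the results turn, the promoters of CHD1, which the study ties to ESS2, and of SMARCA4 and SMARCA2, the alternative ATPases of SWI/SNF, are printed from RefSeq (GRCh38.p14). Each run holds the 250 bases before the most upstream start listed, 5′ to 3′ on the strand of the gene. Capitals mark GGGCGG (the GC box), CCAAT or TATAAA on either strand, and a match is a description of these letters, not a binding site. SMARCA4 lies at chr19:10960780-10961029 on the plus strand, SMARCA2 at chr9:2015097-2015346 on the plus strand and CHD1 at chr5:98929008-98929257 on the minus strand.
SMARCA4: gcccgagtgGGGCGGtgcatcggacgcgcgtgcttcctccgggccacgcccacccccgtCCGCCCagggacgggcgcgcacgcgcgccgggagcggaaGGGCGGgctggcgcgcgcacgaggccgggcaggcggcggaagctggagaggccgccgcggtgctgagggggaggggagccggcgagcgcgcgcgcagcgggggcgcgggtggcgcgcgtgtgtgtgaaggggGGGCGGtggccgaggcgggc
SMARCA2: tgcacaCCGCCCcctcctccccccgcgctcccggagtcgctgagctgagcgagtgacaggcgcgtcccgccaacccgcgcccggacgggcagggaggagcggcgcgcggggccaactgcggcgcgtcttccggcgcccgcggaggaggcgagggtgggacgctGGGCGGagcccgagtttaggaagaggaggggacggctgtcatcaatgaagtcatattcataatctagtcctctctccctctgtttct
CHD1: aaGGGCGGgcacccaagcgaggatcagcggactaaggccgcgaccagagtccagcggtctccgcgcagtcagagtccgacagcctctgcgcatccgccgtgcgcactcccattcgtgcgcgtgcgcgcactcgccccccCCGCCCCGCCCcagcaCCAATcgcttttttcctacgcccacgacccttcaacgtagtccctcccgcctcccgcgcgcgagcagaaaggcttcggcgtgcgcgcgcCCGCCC

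The SMARCA4 window held 44 CG dinucleotides and 4 GC boxes, the SMARCA2 window 29 and 2, and the CHD1 window 36 and 4, while CHD1 alone of these held a CCAAT box and none held TATAAA. Of the 38 genes, 29 had at least 1 listed start, with 48 windows in all, some of which overlap within a gene. The GC box was in 58.3% of these windows and in 42.6% of all 35116 windows of the same length. CCAAT was in 29.2 and 32% and TATAAA in 4.17 and 10.7%, the latter in 1 window each of RUVBL1 and SMARCA2. The median number of CG dinucleotides was 21.5 for the members and 11 for all windows.

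CHD1, which slides nucleosomes behind elongating polymerase, had processed signals of 516, 562, 361 and 422. After scaling its log2 ratio was −0.02 in PC3 and 0.18 in DU145, and PC3 over DU145 was 0.20 on the control arrays and 0.00 on the knockdown arrays, the former between −0.24 and 0.66 over the alternatives. Across lines the knockdown coefficient was 0.08 ± 0.18 (SE, limma, adjusted p = 0.907, n = 4 arrays). CHD2, its close relative, had processed signals of 650, 791, 458 and 757, and so was highest relative to its control on the DU145-shESS2 array. Its ratio was 0.14 in PC3 and 0.68 in DU145, the latter a 1.61-fold difference. A dimmer CHD2 probe, with processed signals of 13.5, 23.6, 18.8 and 37.3, gave 0.66 and 0.95, so that both probes had ratios above 0 in both lines. Between the control lines these probes disagreed, at 0.19 and −0.79. The limma coefficient of CHD2, 0.41 ± 0.22 (SE), had an adjusted p of 0.746.

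The catalytic CHD subunits of the NuRD complex, which couples remodeling to histone deacetylation, are CHD3, CHD4 and CHD5. CHD4 had processed signals of 1450, 1710, 956 and 1100 and ratios of 0.10 in PC3 and 0.16 in DU145. CHD3 had processed signals of 2800, 2280, 1700 and 1570 and ratios of −0.44 and −0.15. The RNA of both was therefore within 1.5-fold in both lines, CHD4 with a value above 0 and CHD3 below 0. CHD5, which is known mainly from neural tissue, was close to the detection limit, with processed signals of 12.0, 33.4, 22.4 and 17.3 where the lowest signal well above background was 8.94 on the PC3-shC array. Its ratio was 1.34 (2.52-fold) in PC3 and −0.41 in DU145. Another CHD5 probe, with processed signals of 15.5, 15.2, 11.1 and 7.5, had a ratio of −0.17 in PC3, so the higher level rests on 1 dim probe, and the third probe was not well above background on any array.

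Among CHD6 to CHD9 and CHD1L, CHD7, CHD9 and CHD1L passed 1.5-fold between the lines and none after the knockdown at its brightest probe. CHD7, a CHD protein of enhancers, had processed signals of 152, 165, 288 and 348, so that both DU145 arrays were above both PC3 arrays. CHD9 followed the same order, with processed signals of 406, 431, 667 and 685. CHD1L, the PARP-stimulated remodeler also called ALC1, had processed signals of 1490, 1490, 1910 and 1680. Their knockdown ratios stayed between −0.23 and 0.23, and those of CHD6 and CHD8 between −0.15 and 0.08. On the control arrays CHD7 was 2.35-fold, CHD9 2.04-fold and CHD1L 1.59-fold lower in PC3. Dimmer probes of CHD1L and CHD6 went the other way in PC3, at 0.50 and 0.49, as did that of CHD9 at 0.27, and that of CHD1L gave −0.74 in DU145, where its brightest probe gave −0.23. Between the control lines the dimmer CHD6 probe gave −1.50 beside −0.16 for the brightest.

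SMARCA4 (BRG1) and SMARCA2 (BRM) are the alternative ATPases of SWI/SNF, and SMARCA4 set the lines further apart than any other member. Its processed signals were 28400, 27900, 1510 and 1470, high on both PC3 arrays and low on both DU145 arrays without overlap. The log2 ratio of PC3 over DU145 was 3.92 (15.2-fold) on the control arrays and 3.83 on the knockdown arrays, and limma gave 3.88 ± 0.18 (SE) with an adjusted p of 0.00173. SMARCA4 was measured by 1 probe, which leaves no second measurement of this difference. Of 17061 genes compared on both pairs of arrays, 380 had a higher ratio of PC3 over DU145 on the control arrays. Counting both directions, 757 genes had a ratio further from 0. SMARCA2 ran the opposite way, with processed signals of 81.7, 88.1, 105 and 97.6 and a ratio of −0.67 on the control arrays and −0.56 on the knockdown arrays. Its other probe, with processed signals of 60.2, 61.6, 127 and 132, gave −1.39, and the limma call of the brighter probe missed the threshold (adjusted p = 0.0529). Knockdown of ESS2 left both near their controls, SMARCA4 at −0.17 in PC3 and −0.08 in DU145, and SMARCA2 at −0.03 and −0.15.

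**Figure D2:**
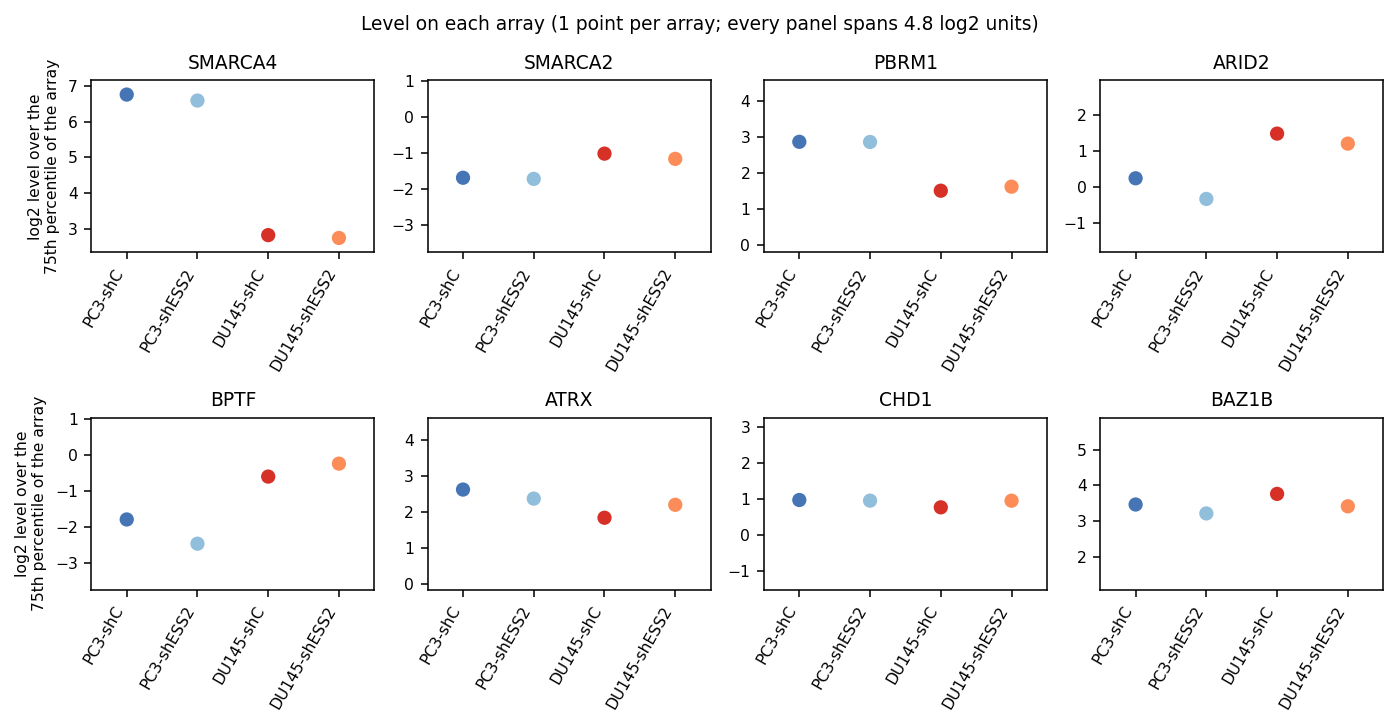
Log2 level over the 75th percentile of the array for 8 remodeler genes on the 4 arrays, 1 point per array, in panels of equal span and separate position. SMARCA4 and PBRM1 are high on both PC3 arrays and ARID2 and BPTF on both DU145 arrays, while CHD1 and BAZ1B are close to level over all 4 with this scaling.

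The core subunits of the canonical SWI/SNF complexes include paralogs that replace each other. SMARCC1, a scaffold subunit, had processed signals of 1000, 986, 502 and 672, and its knockdown ratio was −0.16 in PC3 and 0.38 in DU145. SMARCD2, which links the ATPase module to transcription factors, had processed signals of 1790, 1410, 803 and 917 and ratios of −0.49 and 0.15. SMARCD3, its relative known from heart and muscle, had processed signals of 1520, 1380, 2130 and 2520 and ratios of −0.28 and 0.20. In each of these genes the value was below 0 in PC3 and above 0 in DU145. SMARCE1, a DNA-binding subunit, had processed signals of 2920, 2490, 4870 and 5040 and ratios of −0.37 and 0.01, the former −0.03 at its other probe. SMARCB1, SMARCC2 and SMARCD1 lay between −0.36 and 0.07 in PC3 and between −0.09 and 0.01 in DU145. Between the lines, SMARCE1 (2.07-fold) and SMARCD3 (1.74-fold) were lower in PC3-shC cells, and SMARCD2 (1.80-fold) and SMARCC1 (1.61-fold) higher, but the other SMARCE1 probe, at −0.47, did not pass 1.5-fold, and on the knockdown arrays SMARCD2 and SMARCC1 had ratios of only 0.21 and 0.14.

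Of the subunits that tell the BAF and PBAF forms of SWI/SNF apart, PBRM1 and ARID2 passed 1.5-fold between the lines, in opposite directions. ARID1A and ARID1B, alternative DNA-binding subunits of BAF, did not separate the lines past 1.5-fold. Processed signals were 328, 386, 221 and 219 for ARID1A and 364, 343, 225 and 265 for ARID1B. Their knockdown ratios were 0.09 and −0.05 for ARID1A and −0.23 and 0.20 for ARID1B, in PC3 and DU145. Of the PBAF subunits, PBRM1, which reads acetylated histones, had processed signals of 1920, 2110, 601 and 668 and was 2.58-fold higher in PC3-shC than in DU145-shC cells. Its other probe gave a log2 ratio of 1.01 beside 1.36. ARID2 went the other way, with processed signals of 311, 230, 595 and 504, a 2.37-fold lower level in PC3-shC cells. ARID2 was also the member nearest to the fold threshold in PC3 without passing it, with knockdown ratios of −0.58 in PC3 and −0.28 in DU145. BRD7, of PBAF, and DPF2, of BAF, had knockdown ratios between −0.32 and 0.17.

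In the ISWI family, SMARCA5 (SNF2H) and SMARCA1 (SNF2L) are the alternative ATPases and the BAZ proteins and BPTF their partners. BAZ1B (WSTF), the subunit of the WICH complex that the study links with ESS2, had processed signals of 2910, 2700, 2880 and 2330. Its knockdown ratio was −0.25 in PC3 and −0.35 in DU145, and the other probe gave −0.37 and −0.24. These 4 values lay below 0 and none passed 1.5-fold, and for the knockdown across lines limma gave −0.30 ± 0.18 (SE) with an adjusted p of 0.747. Between the control lines the probes disagreed at −0.30 and 0.29. BAZ1A, of the ACF complex, had processed signals of 943, 877, 1600 and 1390 and ratios of −0.25 in PC3 and −0.24 in DU145. BPTF, the largest subunit of NURF, which reads trimethylated H3K4, had processed signals of 75.8, 52.3, 140 and 185. It was lower in PC3-shESS2 cells at −0.68 (1.60-fold) and had a ratio of 0.36 in DU145, and its single probe leaves no second measurement. With normexp background correction the PC3 value was −0.39, under 1.5-fold. The BPTF response was 1.04 lower in PC3 than in DU145 on the log2 scale, a difference that could not be tested. Among the members only CHD5 had a wider opposite response, at 1.75, and its probes disagreed in PC3.

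None of the remaining ISWI genes passed 1.5-fold after the knockdown. SMARCA5 had processed signals of 747, 1090, 672 and 774 and ratios of 0.40 and 0.16, while SMARCA1 had processed signals of 1050, 1060, 1290 and 1670 and ratios of −0.13 and 0.33. BAZ2A, of the nucleolar remodeling complex, had processed signals of 282, 366, 641 and 888, with ratios of 0.24 and 0.43, above 0 in both lines. BAZ2B had processed signals of 174, 272, 91.6 and 72.7 and ratios of 0.50 and −0.37, but its other probe gave −0.14 and −0.05. Between the control arrays BAZ2A was 2.82-fold, BPTF 2.29-fold, BAZ1A 2.10-fold and SMARCA1 1.52-fold lower in PC3, and BAZ2B 1.53-fold higher. ISWI was the group with the lowest median between lines, −0.61 on the control arrays.

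INO80, EP400 and SRCAP are the large ATPases of the INO80/SWR group, and RUVBL1 and RUVBL2 form the hexameric ring that these complexes share. SRCAP, which deposits H2A.Z, was the most different between lines, with processed signals of 80.9, 97.9, 30.2 and 31.7 and a 2.16-fold higher level in PC3-shC cells. RUVBL2 had processed signals of 4310, 3940, 2090 and 1780, so that both PC3 arrays lay above both DU145 arrays, by 1.66-fold on the controls. Its knockdown ratio was −0.27 in both lines. RUVBL1 had a ratio of −0.57 in PC3, just inside the threshold, and −0.01 in DU145. INO80 and EP400 lay between −0.18 and −0.09 in both lines.

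ATRX, which places histone H3.3 at repeats and telomeres together with DAXX, was measured by 4 probes. Processed signals of the brightest were 1620, 1500, 757 and 1000, those of the next 851, 736, 602 and 823, and those of the others 200, 174, 157 and 207, and 18.9, 17.4, 16.3 and 20.3. All 4 probes were below 0 after the knockdown in PC3, from −0.35 to −0.25, and above 0 in DU145, from 0.28 to 0.41. None of these 8 ratios passed 1.5-fold. Between the lines the probes did not share a direction, from −0.10 to 0.79 on the control arrays, so the 1.73-fold higher level of the brightest in PC3-shC cells was not shown by the rest.

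Between the lines, differences were far more frequent than after the knockdown, for the members as for all genes. On the control arrays 12 members were lower and 8 higher in PC3 by more than 1.5-fold, where 28.7% of 17475 genes were lower and 33.8% higher. Past 2-fold were 8 lower and 3 higher members, 11 of 38, beside 42.0% of all genes. Of the 20 members past 1.5-fold, 14 (70.0%) were also past it in the same direction on the knockdown arrays, compared with 82.5% of all genes. The scale between the lines was not settled. The calls were 7 lower and 20 higher with median scaling, 13 and 4 with quantile normalization, and 17 and 3 with the authors' scaled values. Ratios were below 0 for 17 members and above 0 for 21 as reported, but for 13 and 25 with median scaling, 25 and 13 with quantile normalization, and 30 and 8 with the authors' scaled values. The median of all genes moved from 0.12 to between −0.33 and 0.58 with these scalings. All 20 members kept their sign, and 8 passed 1.5-fold under every scaling, CHD7, SMARCE1, ARID2, BAZ1A, BAZ2A and BPTF lower and SMARCA4 and PBRM1 higher in PC3 at their brightest probe.

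With both conditions of each line fitted together, limma called 14 of 38 members at an adjusted p of 0.05, beside 52.3% of 17126 genes. The 9 members lower in PC3 were BAZ2A, ARID2, CHD7, BPTF, BAZ1A, SMARCE1, CHD9, SMARCD3 and SMARCA1, and the 5 higher were SMARCA4, PBRM1, SRCAP, RUVBL2 and BAZ2B. After SMARCA4, the lowest adjusted p-values (limma) were 0.00689 for BAZ2A at −1.59 ± 0.18 (SE), 0.00983 for PBRM1 at 1.31 ± 0.18 and 0.00991 for ARID2 at −1.40 ± 0.19. Of the called members, BAZ2B had the highest adjusted p (limma), 0.045, with a coefficient of 1.05 ± 0.29 (SE). CHD1L and SMARCA2 lay just past the threshold (limma, adjusted p = 0.0501 and 0.0529). CHD5, past 2-fold on the control arrays, was not called (limma, adjusted p = 0.584), since its ratio was −1.21 on the control and 0.54 on the knockdown arrays.

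**Figure D3:**
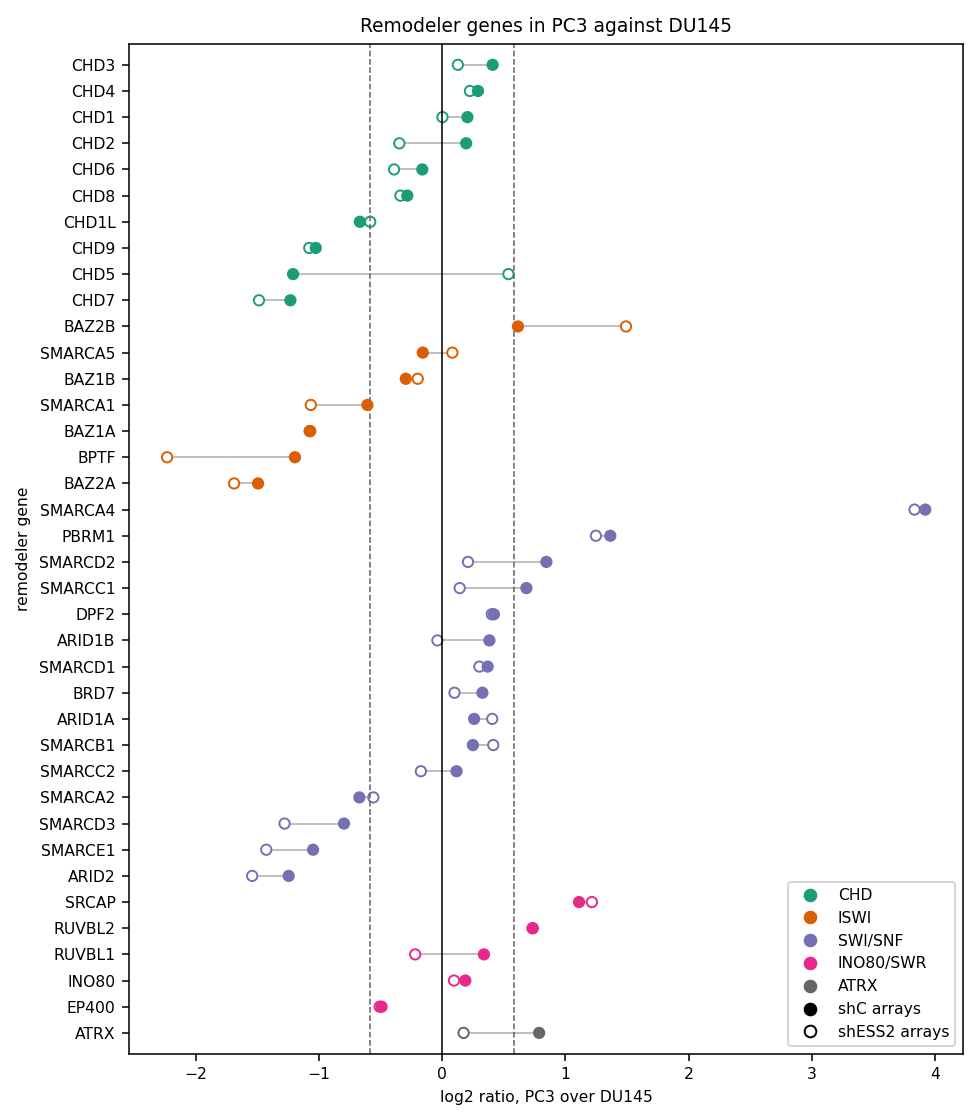
Log2 ratio of PC3 over DU145 for the 38 remodeler genes, filled points on the shC arrays and open points on the shESS2 arrays, coloured by complex, with 1 array per condition. Dashed lines mark 1.5-fold. SMARCA4 stands at 3.92 and 3.83, PBRM1 and SRCAP above 1 on both pairs, and CHD5 changes side.

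The position of SMARCA4 among its neighbours was looked at after its value was seen. Of the 10 protein-coding genes on each side in the RefSeq order (GRCh38.p14), 18 could be compared, and 16 were higher in PC3-shC than in DU145-shC cells, 11 of them by more than 1.5-fold. Of all genes, 54.4% were higher, and 33.8% were so by more than 1.5-fold. Their median log2 ratio was 1.01, compared with 0.12 for all genes. TIMM29, next to SMARCA4 on one side, had a ratio of 1.61. C19orf38 was not well above background on the PC3 arrays and AP1M2 was not so on the DU145 arrays, so that their ratios are bounds, −0.93 or lower and 7.15 or higher. SMARCA4 was above 17 of these 18 neighbours.

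A further 85 genes of the same complexes and of related factors were followed as partners, and 84 could be compared. After the knockdown, 1 was lower and 5 higher by more than 1.5-fold in PC3, and 3 were lower and 1 higher in DU145, which is 1.19 and 5.95% in PC3 and 3.57 and 1.19% in DU145, under the shares of all genes. None passed in both lines, and limma called 0 of 84 across lines. They are named here after their values were seen. GATAD2B, a NuRD subunit, was lower in PC3 at −1.04 with processed signals of 232, 124, 1020 and 1050, and its ratio in DU145 was 0.00. Higher in PC3 were the BAF subunits DPF3 (1.10) and BCL11B (1.03), the ISWI partner CECR2 (0.59), INO80D (0.61) and the repair ATPase ERCC6 (0.66). Under other scalings or background corrections, tried for the partners after seeing the data, CECR2, INO80D and ERCC6 were under 1.5-fold with median scaling and with normexp, which left 2 higher, and 7 were higher with the authors' scaled values. Lower in DU145 were the PBAF subunit PHF10 (−1.00), BCL11A (−0.66) and the termination factor TTF2 (−0.85), and CHRAC1, of the CHRAC complex, was higher (0.61). These DU145 counts were 2 lower and 0 higher with normexp, and 3 and 3 with quantile normalization. ERCC6 at 0.55 in DU145 and CHRAC1 at 0.48 in PC3 fell short of the threshold in the other line. By list, the median in PC3 ran from −0.28 for histone chaperones and elongation factors to 0.18 for the ISWI partners, and that of all 84 was −0.03.

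Between the control lines, 10 partner genes were lower and 32 higher in PC3, which is 11.9 and 38.1% beside 28.7 and 33.8% of all genes. Called by limma were 8 lower and 26 higher, 40.5% beside 52.3% of all genes. Their median was 0.42, compared with 0.12 for all genes. ERCC6 gave the largest contrast of those named, with processed signals of 483, 843, 21.5 and 32.3 and a log2 ratio of 4.18 on the control arrays. Members of NuRD stood on both sides, as 2 of 12 were lower and 5 higher, and 5 lower and 1 higher with the authors' scaled values. These splits turned with the scaling, also tried after seeing the data. Over all partner genes they were 5 lower and 53 higher with median scaling, 17 and 18 with quantile normalization, and 23 and 12 with the authors' scaled values, where the median was −0.03. Of the 16 SRCAP and TIP60 partners, 0 were lower and 6 higher, but 3 were lower and 0 higher with the authors' scaled values.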

How the data were processed

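The authors deposited the scanner output of 4 Agilent arrays (design 072363, Feature Extraction 12.1.0.3 for PC3 and 12.0.3.1 for DU145), whose processed intensity is background-subtracted and detrended but not scaled between arrays. Their table of scaled intensity values equals the processed signal times 1 constant per array, with column medians of 41.6, 47.5, 77.6 and 77.3. Its scale and its constants are not explained in the sources used here, and it served as an alternative.

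Log2 signals were scaled to the 75th percentile of each array, control spots and outlier spots were left out (5 probes lost), and spots of 1 probe were averaged. Of 58201 probes, 35080 were matched to a symbol by accession. Genes dim on both arrays of a pair were not compared, and a dim value was raised to the lowest signal well above background. The fit across lines used cell line and knockdown as terms (limma 3.58.1, R 4.3.3, Benjamini-Hochberg over all genes detected on 2 or more arrays). It was also run on simulated data with changes of the same size in both lines. These changes were larger than the knockdown ratio of any member, so that run does not cover changes of the size measured here. Spot spread came from the 300 probes spotted 10 times. Python 3.11.15, numpy 2.4.6, pandas 2.3.3 and matplotlib 3.10.9 were used.

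The members and lists were chosen with earlier results of these data known. Values on all arrays are given for CHD1, BAZ1B, members past 1.5-fold in any comparison, members called by limma, and the ATPase, NuRD and ARID1 paralogs. Alternatives were median scaling, quantile normalization, the authors' values, normexp with an offset of 50 on the median spot signal, other filters on dim genes, plain dim signals, the mean of the probes, outlier spots kept and, for limma, 1 factor left out.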

Additional observations from a re-analysis of the deposited data

Results flagged for a closer look

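In 5 genes the response to ESS2 knockdown ran one way in PC3 and the other way in DU145, each beyond 2 times the spread between spots, with the same sign under every scaling and at every measured probe, which for all but ATRX is a single probe. The difference between lines was not tested, as each condition has 1 array. On the log2 scale, the PC3 response minus the DU145 response was −1.04 for BPTF, −0.61 for ATRX, −0.54 for SMARCC1, −0.48 for SMARCD3 and −0.42 for ARID1B. All 5 had ratios below 0 in PC3 and above 0 in DU145, ATRX at 4 probes, and BPTF in PC3 was the only one of these past 1.5-fold. The same conditions held for 13.2% of the members and 12.8% of the 15478 genes compared in both lines, so the share of members is near that of all genes. SMARCC1 in PC3, at −0.16, lay just past 2 times the spread between spots and was −0.07 with the authors' scaled values, under which ARID1B in PC3 was −0.14, also within that spread.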

How the results depend on the processing

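No single member changed sign while past 1.5-fold under any of the 9 alternatives. The number of members past 1.5-fold in PC3 was 2 as reported, 5 with median scaling, 1 with the mean of the probes (which leaves out CHD5) and 0 with normexp. The members' median in PC3 was −0.13 as reported, −0.24 with median scaling and −0.047 with the authors' values. Between the control lines it was 0.19 as reported, 0.65 with median scaling, 0.10 with the mean of the probes, and below 0 with quantile normalization (−0.17) and the authors' values (−0.26). The counts for DU145, for the control lines in both directions together (15 to 27 members past 1.5-fold) and for limma (14 to 18 members called between lines, 0 for the knockdown) stayed within 1.5 times. By direction they did not, as the 12 lower and 8 higher members became 7 and 20 with median scaling, 13 and 4 with quantile normalization and 17 and 3 with the authors' values. Over all genes, normexp took the lower and higher counts from 1673 and 1688 to 918 and 812 in PC3 and from 1453 and 1209 to 480 and 539 in DU145. Leaving out the filter on dim genes took them to 2633 and 3034, and to 2491 and 2186. Between the control lines the split of 5019 lower and 5905 higher genes became 3368 and 8685 with median scaling and 7206 and 3708 with the authors' values. No paired analysis was possible because each condition has 1 array, beyond the cell line as a term of the limma fit, which compares the knockdown within lines. For the same reason no replicate could be left out, and a dim probe such as that of CHD5 is limited by its closeness to background.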
